A study of Mus musculus with 11 samples.

Results

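The transcripts of 10 genes that sense or relay stress of the endoplasmic reticulum (ER) were followed in mouse hepatocytes with and without the transcription factor XBP1. They were chosen by name, with earlier results of these data known. They include the sensor genes Ern1 (encoding IRE1α), Eif2ak3 (PERK), Atf6 and Atf6b, and the IRE1α substrate Xbp1. The others are the membrane-bound relatives Creb3, Creb3l2 and Creb3l3, and Mbtps1 and Mbtps2, which encode the site-1 and site-2 proteases. These genes are 10 of the 54232 counted, and all 10 were among the 13303 that passed the filter on low counts. RNA-seq of hepatocytes gave 11 libraries: 3 from Xbp1 fl/fl chow mice, 2 from Xbp1 LKO chow mice, and 3 from each genotype on a high fat sugar (HFS) diet. All mice were adult males of a C57BL/6 background that carried floxed Xbp1, and Xbp1 LKO mice in addition expressed Cre under the albumin promoter, which deletes Xbp1 in hepatocytes. The HFS diet was a Western diet with fructose and glucose in the drinking water, and feeding lasted up to 6 weeks. A chow library represents 1 mouse, whereas RNA of 2 mice was pooled for every HFS library, and the spread between HFS libraries is thus that between pools. The hepatocytes had been purified on Percoll.

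In the unfolded protein response, IRE1α, PERK and ATF6 span the ER membrane and respond to misfolded protein in the lumen. IRE1α cuts Xbp1 mRNA so that it encodes an active transcription factor and can degrade other mRNAs, a process known as RIDD, while PERK phosphorylates eIF2α and thereby favours translation of ATF4. ATF6, ATF6B and the CREB3 family are transcription factors held in the ER membrane; they move to the Golgi, where the site-1 and then the site-2 protease release their active part. The liver secretes much protein and uses this system heavily, and Creb3l3 (also known as CREBH) is a liver and gut gene that controls apolipoproteins and fasting genes.

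The gene-level count of Xbp1 mixes forms of the transcript that differ in short stretches, and those stretches are shown because they bear on how its values can be read. Both come from transcript Xbp1-201 of GENCODE M21, which has 5 exons and 2129 bases. The first is exon 2 (chr11:5521923-5522019 of GRCm38, plus strand), the coding exon that the floxed allele loses on recombination. The second is a stretch of coding exon 4 (chr11:5524259-5524324, plus strand). Its 26 capitals (chr11:5524279-5524304) mark the bases between the cuts that IRE1α makes within a pair of CNGCAGN matches.
Xbp1 exon 2: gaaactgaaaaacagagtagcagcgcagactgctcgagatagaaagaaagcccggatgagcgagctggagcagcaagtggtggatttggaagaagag
Xbp1 exon 4, IRE1α-cut stretch in capitals: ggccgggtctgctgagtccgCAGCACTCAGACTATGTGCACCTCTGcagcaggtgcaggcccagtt
Exon 2 has 97 bases, which is 4.56% of the transcript, and the cut stretch 1.22%. A count per gene therefore keeps reads from a transcript without exon 2, and it does not separate the cut from the uncut form.

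Total counts were 19191032 to 23888401 per library. Hepatocyte identity was checked on 16 markers, whose summed level in CPM (counts scaled to a common library size) was 153385 to 187667 in Xbp1 fl/fl chow libraries and 53304 to 90426 in Xbp1 LKO chow libraries. The sums on the HFS diet were 132629 to 151701 and 71649 to 101916. Alb, the albumin gene, took 8.06% to 10.9% of the counts in the Xbp1 fl/fl chow libraries but 3.72% and 1.67% in Xbp1 LKO libraries 1 and 2. That second Xbp1 LKO chow library stood apart from its partner in several stress genes as well: Hspa5, the ER chaperone BiP, was at 2639 CPM in it and 786 CPM in library 1. Markers of other cells were low. The 12 endothelial markers summed to 51.6 to 125 CPM in Xbp1 fl/fl chow, 31.8 to 39.4 CPM in Xbp1 LKO chow, 98.1 to 163 CPM in Xbp1 fl/fl HFS and 82.3 to 131 CPM in Xbp1 LKO HFS libraries. The 15 macrophage markers summed to 24.04 to 101, 27.6 to 40.7, 45.3 to 64.9 and 64.2 to 116 CPM in the same order, and the 12 stellate cell markers to 19.3 to 65.0, 14.1 to 16.7, 34.0 to 60.9 and 38.7 to 80.1 CPM. The 10 cholangiocyte markers summed to 22.1 to 41.5 CPM and the 12 lymphocyte and neutrophil markers to 0.548 to 6.06 CPM over all libraries, with Krt19 at 0.15 CPM or less and Cd3e at 0.12 CPM or less. The part of these shifts in the results below was not tested, and in whole-library RNA fewer cells of a type cannot be told apart from less RNA per cell.

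Levels between genes were compared as CPM per kilobase of exon sequence. Creb3l3 had the highest level of the 10 genes, at 165 CPM per kb averaged over the 11 libraries, and Xbp1 followed at 56.7 CPM per kb. Creb3 (17.1 CPM per kb), Atf6 (13.7), Ern1 (12.5), Mbtps1 (8.85) and Atf6b (7.42) formed the middle of the order. Creb3l2 (3.22 CPM per kb), Eif2ak3 (2.43) and Mbtps2 (1.02) were lowest. Thus the transcript for the site-1 protease lay above that for the site-2 protease in every library, and the PERK transcript below those of both other sensors. In Xbp1 fl/fl chow libraries only Ern1 and Atf6b, and Atf6b and Mbtps1, were neighbours whose ranges overlapped. In Xbp1 fl/fl HFS libraries no neighbours overlapped. In Xbp1 LKO libraries Creb3, Ern1 and Atf6 ran together, overlapping from neighbour to neighbour on both diets, as did Creb3l2 and Eif2ak3. The order of the 10 means was the same when the length of the longest transcript was used in place of all exons.

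**Figure D1:**
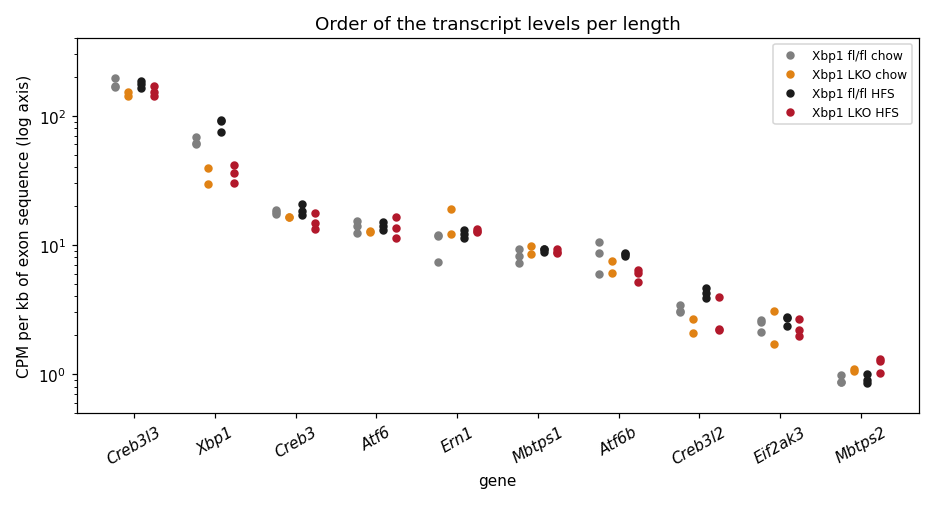
Transcript level in CPM per kb of exon sequence (log axis) for the 10 genes, ordered by the mean over the 11 libraries, with 1 point per library coloured by group. Creb3l3 and Xbp1 stand above the rest, and Mbtps2 lies lowest at a mean of 1.02 CPM per kb.

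The genotype comparison asks how the other sensors stood once XBP1 was missing. On chow, 1 of the 10 genes, Xbp1 itself, had an adjusted p under 0.05 by edgeR's quasi-likelihood test, against 4.75% of all genes tested (1.73% higher and 3.02% lower). Again it was Xbp1 alone on the HFS diet, against 4.08% of all genes (1.92% higher and 2.16% lower). At an unadjusted p under 0.05 there were 2 of the 10 genes on chow and 5 on the HFS diet, where all genes gave 19.3% and 17.5%. The median log2 fold change of the 10 genes was -0.12 on chow and -0.18 on the HFS diet, and that of all genes tested 0.0024 and 0.0083. With library totals in place of TMM factors the median of all genes moved to 0.33 and 0.27 and that of the 10 genes to 0.21 and 0.07, so both stayed below that of all genes. Without TMM factors 8 of the 10 genes had a positive change on chow, in place of 3, and 6 on the HFS diet, in place of 2. Over all genes, the 230 higher and 402 lower calls on chow became 2685 and 315 with library totals, and the 256 and 287 calls on the HFS diet became 1288 and 195. Directions of small changes below are therefore those relative to TMM scaling.

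**Figure D2:**
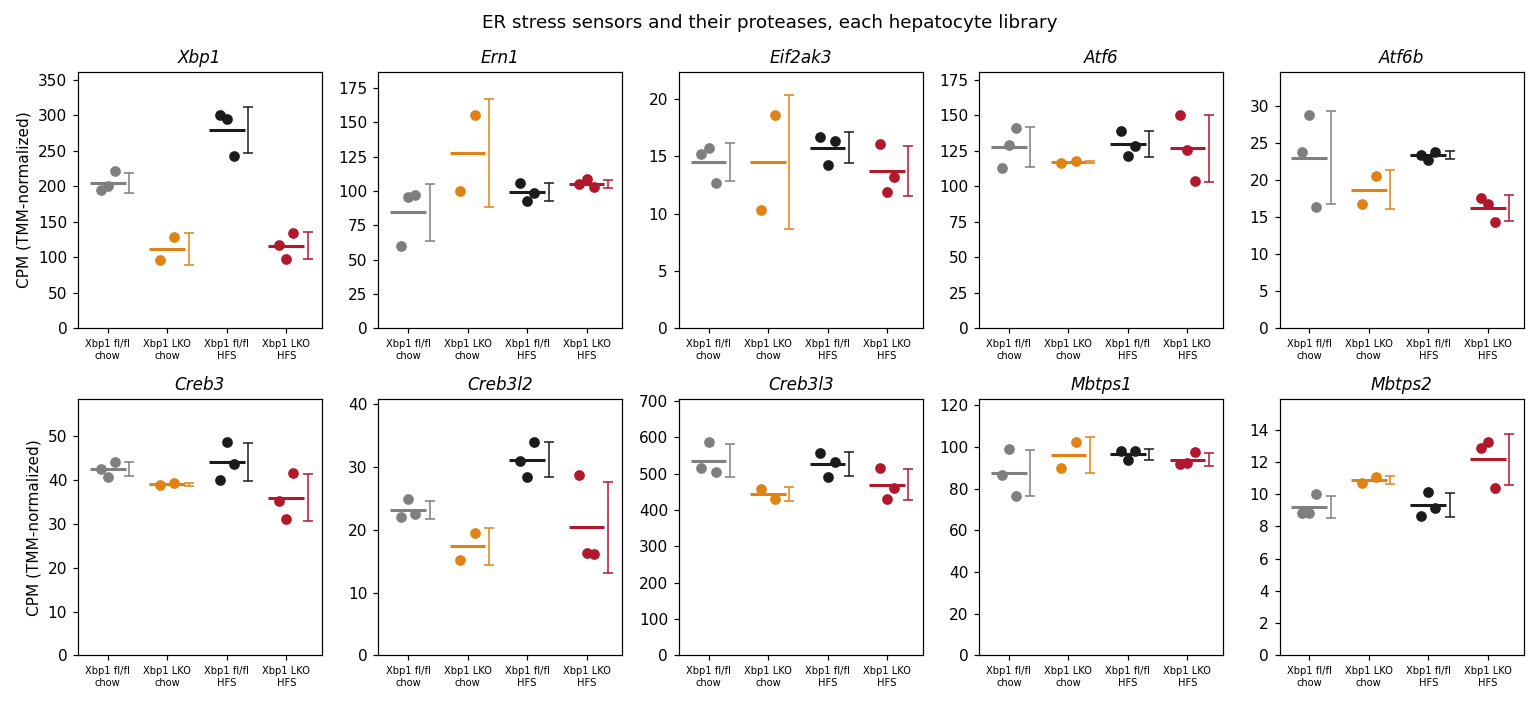
TMM-normalized level (CPM, each axis from 0) of the 10 genes in each of the 11 libraries. Points are libraries, horizontal lines group means and the bars beside them 1 SD (n = 3, or 2 for Xbp1 LKO chow). Xbp1 alone separates the genotypes on both diets with a gap that passed the test, and Xbp1 LKO chow libraries differ widely from each other in Ern1 and Eif2ak3.

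The IRE1α pair comes first. Xbp1 (ENSMUSG00000020484, chr11:5520659-5525893, plus strand) was at 194, 200.3 and 221 CPM in Xbp1 fl/fl chow libraries and at 95.7 and 128 CPM in Xbp1 LKO chow libraries. Xbp1 fl/fl HFS libraries had 301, 295 and 242 CPM, and Xbp1 LKO HFS libraries 117, 97.3 and 135 CPM. Both Xbp1 LKO groups lay below both Xbp1 fl/fl groups without overlap, and transcript from the locus remained in each Xbp1 LKO library. The level in Xbp1 LKO was 0.545 times that in Xbp1 fl/fl on chow (95% interval 0.416 to 0.714, log2 fold change -0.87, SE 0.18, edgeR adjusted p = 0.018) and 0.416 times on the HFS diet (0.328 to 0.528, log2 fold change -1.26, SE 0.16, adjusted p = 0.0025). As the deleted gene it checks the labels. Without Xbp1 LKO chow library 1 or 2, the chow value was -0.68 (edgeR adjusted p = 0.092) or -1.10 (adjusted p = 0.059).

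Ern1 (ENSMUSG00000020715, chr11:106394650-106487852, minus strand), the kinase and RNase that cuts Xbp1 mRNA, was at 60.1, 95.7 and 97.2 CPM in Xbp1 fl/fl chow libraries and at 99.9997 and 156 CPM in Xbp1 LKO chow libraries. HFS values were 106, 93.0 and 98.4 CPM in Xbp1 fl/fl and 105, 108 and 103 CPM in Xbp1 LKO libraries. The chow groups did not overlap, with a gap that was small next to the distance between the 2 Xbp1 LKO libraries, and the HFS groups overlapped. The log2 fold change on chow was 0.60 (SE 0.21, unadjusted p = 0.016, edgeR adjusted p = 0.143), or 1.52-fold with a 95% interval of 1.10 to 2.09, and did not pass. It was 0.24 (edgeR adjusted p = 0.816) without Xbp1 LKO library 2, 0.88 (adjusted p = 0.045) without library 1, and 0.41 (adjusted p = 0.261) without Xbp1 fl/fl library 1. The HFS value was 0.09 (SE 0.19, edgeR adjusted p = 0.882), with a 95% interval of 0.794 to 1.42 in fold.

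Eif2ak3 (ENSMUSG00000031668, chr6:70844515-70905245, plus strand), the PERK kinase gene, was low throughout. Xbp1 fl/fl chow libraries had 15.2, 15.7 and 12.6 CPM and Xbp1 LKO chow libraries 10.4 and 18.7 CPM. HFS-fed libraries had 16.7, 14.3 and 16.4 CPM in Xbp1 fl/fl and 16.1, 11.9 and 13.2 CPM in Xbp1 LKO. The 2 Xbp1 LKO chow libraries were the lowest and the highest of all 11, so that their mean said little about either. The log2 fold change was -0.0014 on chow (SE 0.22, edgeR adjusted p = 0.999) and -0.20 on the HFS diet (SE 0.20, adjusted p = 0.684). The chow value was -0.49 without Xbp1 LKO library 2 and 0.36 without library 1, and neither passed.

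Atf6 (ENSMUSG00000026663, chr1:170704674-170867771, minus strand) was at 113, 129 and 141 CPM in Xbp1 fl/fl chow, 117 and 118 CPM in Xbp1 LKO chow, 139, 121 and 129 CPM in Xbp1 fl/fl HFS and 150.5, 126 and 104 CPM in Xbp1 LKO HFS libraries. The groups overlapped on both diets. Its genotype differences were the narrowest bound among the sensors: the fold in Xbp1 LKO was 0.917 on chow (95% interval 0.723 to 1.16) and 0.977 on the HFS diet (0.790 to 1.21). Its paralogue Atf6b (ENSMUSG00000015461, chr17:34647146-34655074, plus strand), which encodes a weaker activator, was at 23.8, 28.8 and 16.4 CPM in Xbp1 fl/fl chow and 16.8 and 20.6 CPM in Xbp1 LKO chow libraries. Its HFS values were 23.4, 22.8 and 23.9 CPM in Xbp1 fl/fl and 17.6, 16.7 and 14.3 CPM in Xbp1 LKO libraries. The chow groups overlapped, and on the HFS diet each Xbp1 LKO pool lay below each Xbp1 fl/fl pool. The log2 fold change was -0.30 on chow (SE 0.20, edgeR adjusted p = 0.457) and -0.52 on the HFS diet (SE 0.18, unadjusted p = 0.012, adjusted p = 0.135), and neither passed.

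In the CREB3 family, Creb3l3 (ENSMUSG00000035041, chr10:81084324-81098874, minus strand) had 516, 587 and 503.5 CPM in Xbp1 fl/fl chow and 458 and 431 CPM in Xbp1 LKO chow libraries. HFS-fed libraries had 557, 490.1 and 533 CPM in Xbp1 fl/fl and 515, 431.5 and 460.4 CPM in Xbp1 LKO. The chow groups did not overlap and the HFS groups did. Neither difference passed, with a log2 fold change of -0.27 on chow (SE 0.14, edgeR adjusted p = 0.314) and -0.17 on the HFS diet (SE 0.12, adjusted p = 0.554). Creb3l2 (ENSMUSG00000038648, chr6:37327255-37442146, minus strand), known for its part in secretory capacity of cartilage and other tissues, was at 22.0, 24.8 and 22.5 CPM in Xbp1 fl/fl chow and 15.2 and 19.4 CPM in Xbp1 LKO chow libraries. Its HFS values were 31.0, 28.4 and 33.9 CPM in Xbp1 fl/fl and 28.7, 16.3 and 16.1 CPM in Xbp1 LKO pools. The first Xbp1 LKO pool fell within the Xbp1 fl/fl range and the other 2 far below it. The log2 fold change was -0.42 on chow (SE 0.23, edgeR adjusted p = 0.357) and -0.61 on the HFS diet (SE 0.20, unadjusted p = 0.011, adjusted p = 0.124). Without that first pool the HFS value was -0.94 (edgeR adjusted p = 0.0059). Over all omissions of 1 library it ranged from -0.94 to -0.47, with an edgeR adjusted p of up to 0.392. Creb3 (ENSMUSG00000028466, chr4:43562332-43567060, plus strand), the broadly expressed founder of the family, was at 42.6, 40.8 and 44.1 CPM against 38.8 and 39.3 CPM on chow, and at 40.1, 48.7 and 43.7 CPM against 35.1, 31.2 and 41.7 CPM on the HFS diet, with Xbp1 fl/fl first. Its chow groups stood just apart and its HFS groups overlapped, with a log2 fold change of -0.12 (SE 0.13, edgeR adjusted p = 0.671) and -0.30 (SE 0.12, adjusted p = 0.208). Exons of Creb3 overlap those of Gba2 and Tln1 on the other strand, so its count could hold reads of these genes if strand was not used in counting.

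The protease genes come last. Mbtps1 (ENSMUSG00000031835, chr8:119508156-119558735, minus strand), whose product makes the first cut, was at 86.7, 98.8 and 76.6 CPM in Xbp1 fl/fl chow, 90.1 and 102 CPM in Xbp1 LKO chow, 97.8, 93.5 and 98.2 CPM in Xbp1 fl/fl HFS and 91.6, 92.4 and 97.7 CPM in Xbp1 LKO HFS libraries. All 4 groups overlapped with their partners. The fold in Xbp1 LKO was 1.10 on chow (95% interval 0.916 to 1.33) and 0.974 on the HFS diet (0.825 to 1.15). Mbtps2 (ENSMUSG00000046873, chrX:157535371-157598715, minus strand), whose product cuts within the membrane, was at 8.83, 8.84 and 10.01 CPM in Xbp1 fl/fl chow and 10.7 and 11.1 CPM in Xbp1 LKO chow libraries. On the HFS diet it was at 8.67, 10.1 and 9.16 CPM in Xbp1 fl/fl and 12.9, 13.2 and 10.4 CPM in Xbp1 LKO pools. Xbp1 LKO libraries were higher than Xbp1 fl/fl libraries on both diets without overlap. The log2 fold change was 0.24 on chow (SE 0.15, edgeR adjusted p = 0.422) and 0.38 on the HFS diet (SE 0.13, unadjusted p = 0.014, adjusted p = 0.143), and neither passed.

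Across the 10 genes the chow groups stood apart with Xbp1 LKO lower for 4 (Xbp1, Creb3, Creb3l2 and Creb3l3) and higher for 2 (Ern1 and Mbtps2), where 15.9% and 15.4% of all genes did so. They stood apart on the HFS diet lower for 2 (Xbp1 and Atf6b) and higher for 1 (Mbtps2), against 12.5% and 13.6% of all genes.

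**Figure D3:**
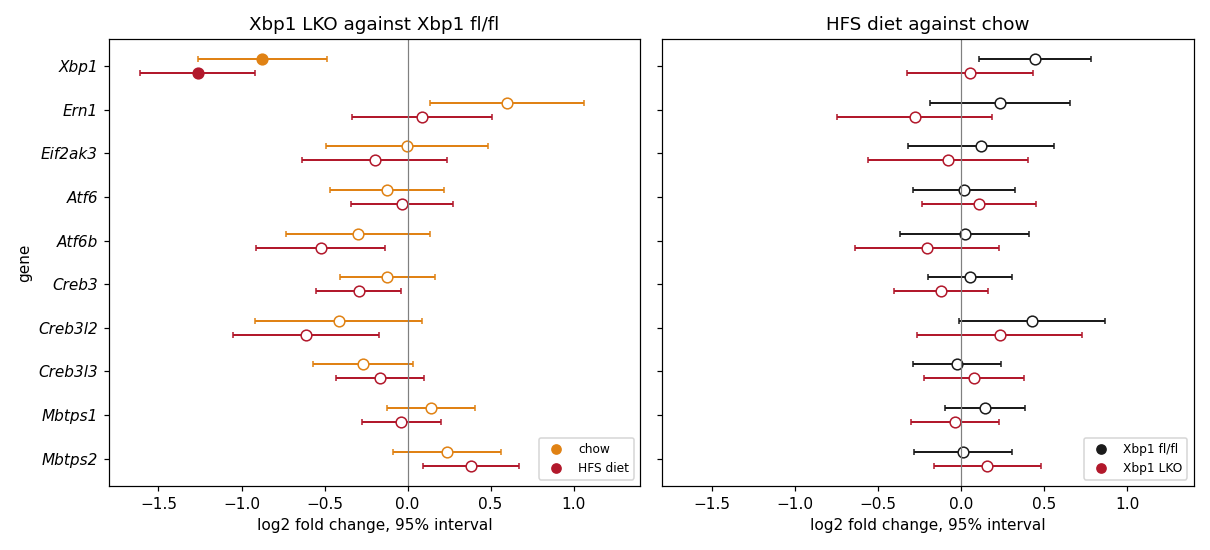
Log2 fold changes with 95% intervals from edgeR's fit for the 10 genes. The left panel compares genotypes on chow and on the HFS diet, the right panel diets within each genotype; filled points have an adjusted p under 0.05. Filled points occur only for Xbp1 between genotypes, at -0.87 and -1.26.

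Diet was compared within each genotype, again with Xbp1 fl/fl controls that also serve the genotype comparison. None of the 10 genes passed in Xbp1 fl/fl hepatocytes (0.428% of all genes did by edgeR), with 1 at an unadjusted p under 0.05 (8.95% of all genes), and none passed in Xbp1 LKO hepatocytes (0.0601% of all genes), with 0 at an unadjusted p under 0.05 (12.7%). DESeq2 called 0 of them in both. In Xbp1 fl/fl hepatocytes 9 of the 10 changes were positive, with a median log2 fold change of 0.09 for the 10 genes and -0.0056 for all genes. The Xbp1 levels given above were higher in each HFS-fed than in each Xbp1 fl/fl chow library, 1.36-fold with a 95% interval of 1.08 to 1.72 (log2 fold change 0.44, SE 0.15, unadjusted p = 0.015, edgeR adjusted p = 0.395). Those of Creb3l2 were also higher without overlap, by 0.43 on the log2 scale (SE 0.20, edgeR adjusted p = 0.583). The other 8 genes overlapped between diets, and 6.33% of all genes stood apart with the HFS group higher and 7.34% with it lower. In Xbp1 LKO hepatocytes the 10 genes divided into 5 positive and 5 negative changes, and each of them overlapped, where 16.7% of all genes stood apart higher and 14.4% lower. Xbp1 stood there at 0.05 on the log2 scale (SE 0.17, edgeR adjusted p = 0.924) and Ern1 by -0.28 (SE 0.21, adjusted p = 0.616).

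Whether the genotype difference depended on diet was tested by the interaction. None of the 10 genes passed in edgeR, and 0.0% of all genes did, while 6.13% had an unadjusted p under 0.05 with 0 of the 10 genes among them; DESeq2 called 31 genes, 0 of them among the 10. The widest interaction was that of Ern1, at -0.51 on the log2 scale (SE 0.29, 95% interval -1.14 to 0.12, edgeR adjusted p = 0.829), and it was -0.16 without Xbp1 LKO chow library 2. For Xbp1 it was -0.39 (SE 0.23, 95% interval -0.90 to 0.12, edgeR adjusted p = 0.850).

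Ratios of 2 of the genes within a library need no scaling factor, and they were chosen after the values had been seen. Ern1 counts were 0.309, 0.478 and 0.440 times those of Xbp1 in Xbp1 fl/fl chow libraries and 0.352, 0.315 and 0.406 times in HFS-fed ones. In Xbp1 LKO libraries they were 1.04 and 1.21 times on chow and 0.896, 1.11 and 0.762 times on the HFS diet. The enzyme's transcript was thus counted 0.762 to 1.21 times as often as that of its substrate in Xbp1 LKO libraries and 0.309 to 0.478 times as often in Xbp1 fl/fl libraries, a gap that includes the deletion of Xbp1 and was not tested. Against Atf6, Ern1 stood at 0.531, 0.741 and 0.689 in Xbp1 fl/fl chow, 0.857 and 1.32 in Xbp1 LKO chow, 0.762, 0.768 and 0.765 in Xbp1 fl/fl HFS and 0.696, 0.862 and 0.990 in Xbp1 LKO HFS libraries. The genotypes stood apart on chow and overlapped on the HFS diet. Within diets the ratio was 1.34-fold higher in Xbp1 LKO by a two-sided exact permutation test over libraries (p = 0.035, adjusted p = 0.13 over 4 ratios). The ratio of Mbtps2 to Mbtps1 was 1.19-fold (exact permutation p = 0.10, adjusted p = 0.133), that of Atf6b to Atf6 0.803-fold (p = 0.14, adjusted p = 0.14) and that of Creb3l2 to Creb3l3 0.798-fold (p = 0.065, adjusted p = 0.13). None of the 4 passed after adjustment. The adjustment covers these 4 ratios but not their choice after the values had been seen, so the p-values are a description only. A single diet cannot give p below 0.10 with these group sizes.

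Genes downstream of each sensor were counted from lists of known targets. The lists were chosen with earlier results of these data known, so their counts are a description and no independent test of a branch. Of all genes tested, edgeR called 4.75% on chow (1.73% higher and 3.02% lower) and 4.08% on the HFS diet (1.92% higher and 2.16% lower). With 1 Xbp1 LKO chow library left out that group holds 1, so chow calls made then are no measure of a list. Without Xbp1 fl/fl chow library 1, 2 or 3 edgeR called 475, 326 and 600 genes on chow, against 632. On the HFS diet it called 239, 275 and 230 without Xbp1 fl/fl pool 1, 2 or 3, against 543. Without Xbp1 LKO pool 1, 2 or 3 it called 532, 184 and 285. Counts of calls in a list after such omissions stand beside these. Among 15 tested genes that IRE1α and XBP1 control, 6 fell in Xbp1 LKO chow hepatocytes and 4 on the HFS diet, none rose, and the median log2 fold changes were -0.74 and -0.58. DESeq2 called 9 and 11 of the 15 lower, and limma-voom 6 and 4. Over all genes DESeq2 called 700 of 13402 lower on chow and 532 of 14411 on the HFS diet, and limma-voom 384 and 285 of 13303. Sec61b, a subunit of the channel through which proteins enter the ER, was at 28.5, 24.2 and 28.9 CPM in Xbp1 fl/fl chow and 9.98 and 9.74 CPM in Xbp1 LKO chow libraries. On the HFS diet it was at 28.5, 29.6 and 26.9 CPM in Xbp1 fl/fl and 17.1, 8.18 and 12.8 CPM in Xbp1 LKO libraries (log2 fold change -1.16, SE 0.20, edgeR adjusted p = 0.010). All Xbp1 LKO libraries were below all Xbp1 fl/fl libraries. Edem1, which hands misfolded glycoproteins to degradation, fell by 0.83 on the log2 scale on the HFS diet (edgeR adjusted p = 0.0080). On chow the smallest p belonged to Ssr3 (log2 fold change -1.11, edgeR adjusted p = 0.0053) and Serp1 (-1.10, adjusted p = 0.0054), which act at the translocation channel. Dnajb9, a co-chaperone of BiP, was at -0.80 on chow (adjusted p = 0.229) and -0.39 on the HFS diet (adjusted p = 0.580). Without Xbp1 LKO chow library 2 the chow median of this list was -0.98, against -0.74 with all libraries. Sec61b was then at -1.45, Ssr3 at -1.14 and Serp1 at -1.25 on the log2 scale. On the HFS diet 7 of the 15 passed without Xbp1 LKO pool 1 and 2 without pool 2.

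Of 8 mRNAs described as substrates of RIDD, 4 fell on each diet, among them Dgat2, Hgsnat and Ppp1r15b. Such transcripts were also picked by the study from these hepatocytes, so the list is no independent evidence of its direction. Its median log2 fold change was -1.24 on chow and -1.22 on the HFS diet, and DESeq2 called 4 lower on chow and 5 on the HFS diet. Hgsnat, a lysosomal acetyltransferase gene, was at 62.3, 78.8 and 60.4 CPM in Xbp1 fl/fl chow and 22.2 and 12.1 CPM in Xbp1 LKO chow libraries, and at 58.6, 65.3 and 63.6 CPM against 17.6, 11.8 and 19.4 CPM on the HFS diet. The groups stood far apart (log2 fold change -1.97 and -1.94, edgeR adjusted p = 0.0040 and 0.0023). Dgat2, which makes triglyceride, fell by 1.64 on the log2 scale on chow (edgeR adjusted p = 0.0073) and by 1.89 on the HFS diet (adjusted p = 0.0025). Bloc1s1, the RIDD substrate most often used as a marker, was counted at only 1 to 32 reads a library. It was lower, at -1.79 on chow (edgeR adjusted p = 0.157) and -1.73 on the HFS diet (adjusted p = 0.132), short of the threshold. The study, whose methods name kallisto and DESeq2, reported Bloc1s1 as markedly lower on both diets, past its own threshold. Without Xbp1 LKO chow library 2, Hgsnat was at -1.60, Dgat2 at -1.28 and Ppp1r15b at -0.74 on chow. Of 10 genes that bind IRE1α or take part in Xbp1 splicing, 0 passed on chow and 1 on the HFS diet, where 4.75% and 4.08% of all genes passed. It was Bax, a pore-forming protein known to bind IRE1α, which rose (log2 fold change 0.71, edgeR adjusted p = 0.037). That call was lost without any 1 of the 6 HFS libraries or without the second Xbp1 fl/fl chow library, and limma-voom did not make it. Of the 10, DESeq2 called 1 higher and 1 lower on chow, and 1 higher and 0 lower on the HFS diet. Tmbim6, an inhibitor of IRE1α, was at -0.31 on the HFS diet (adjusted p = 0.428). On chow Bax was at 0.63 (edgeR adjusted p = 0.071), or 0.20 without Xbp1 LKO library 2 and 0.96 (adjusted p = 0.0043) without library 1, and Mapk8, the JNK1 kinase gene, at -0.46 (adjusted p = 0.066).

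The PERK branch, with 16 tested genes of the ATF4 and CHOP pathway, had 6 that rose and 1 that fell on chow, and 5 and 1 on the HFS diet, with medians of 0.67 and 0.48. DESeq2 called 7 higher on chow and 6 on the HFS diet, and limma-voom 2 on each. Over all genes edgeR called 230 of 13303 higher on chow and 256 on the HFS diet. DESeq2 called 415 of 13402 and 449 of 14411 higher, and limma-voom 176 and 205 of 13303. The chow median was 0.19 without Xbp1 LKO library 2 and 1.07 without library 1. Ddit3, which encodes the pro-apoptotic factor CHOP, was at 4.52, 5.89 and 6.67 CPM in Xbp1 fl/fl chow and 23.6 and 132 CPM in Xbp1 LKO chow libraries. HFS-fed libraries had 5.10, 2.95 and 4.996 CPM in Xbp1 fl/fl and 15.8, 13.5 and 44.5 CPM in Xbp1 LKO. Each Xbp1 LKO library was above each Xbp1 fl/fl library, with a log2 fold change of 3.77 on chow (SE 0.66, edgeR adjusted p = 0.0098) and 2.50 on the HFS diet (SE 0.62, adjusted p = 0.048). Without Xbp1 LKO chow library 2 the chow value was 2.04 (edgeR adjusted p = 0.125), and the HFS call was lost without any 1 Xbp1 fl/fl library of either diet or Xbp1 LKO pool 2 or 3. Atf3 rose from 0.496, 1.21 and 0.946 CPM to 6.53 and 43.0 CPM on chow (log2 fold change 4.80, SE 0.72, edgeR adjusted p = 0.0052), or by 2.87 (adjusted p = 0.045) without Xbp1 LKO library 2. Nupr1, a stress-induced chromatin protein gene, was at 4 to 7 reads in Xbp1 fl/fl chow libraries and 3 to 4 reads in Xbp1 fl/fl HFS libraries, against 245 and 1082 reads in Xbp1 LKO chow libraries and 93 to 557 reads in Xbp1 LKO HFS libraries (edgeR adjusted p = 0.0045 on chow and 0.0079 on the HFS diet). Ppp1r15b, which encodes the eIF2α phosphatase subunit CReP and is also in the RIDD list, went the other way, from 161, 133 and 147 CPM to 87.8, 81.8 and 88.2 CPM on the HFS diet (log2 fold change -0.78, SE 0.12, edgeR adjusted p = 0.0054). Eif2ak3 itself passed on neither diet. The branch called higher on chow counted 3 genes without any 1 Xbp1 fl/fl library. On the HFS diet it counted 1 without Xbp1 fl/fl pool 1 or 3, 2 without Xbp1 fl/fl pool 2 or Xbp1 LKO pool 2, and 3 without Xbp1 LKO pool 3. Among the 3 other tested eIF2α kinase genes (Eif2ak1, Eif2ak2 and Eif2ak4) 0 passed in either genotype comparison, the smallest p belonging to Eif2ak2 on chow (log2 fold change -0.39, edgeR adjusted p = 0.138; Eif2ak1 -0.26, adjusted p = 0.232) and Eif2ak1 on the HFS diet (-0.36, adjusted p = 0.064; Eif2ak2 -0.09, adjusted p = 0.766). By its own quantification and DESeq2, the study reported Eif2ak1 as slightly lower in Xbp1 LKO hepatocytes on the HFS diet, past its threshold. Ern2, Creb3l1 and Creb3l4 did not reach the filter on low counts.

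The ATF6 targets had 7 positive and 7 negative changes on chow and 3 and 11 on the HFS diet. Of 14 tested, the single one to pass was Xbp1, which is the deleted gene, where 4.75% of all genes passed on chow and 4.08% on the HFS diet. The medians were 0.02 on chow and -0.44 on the HFS diet. Hspa5 was at 796, 1238 and 1685 CPM in Xbp1 fl/fl chow and 786 and 2639 CPM in Xbp1 LKO chow libraries, and at 1338, 565 and 1079 CPM against 1059, 844 and 936 CPM on the HFS diet. The groups overlapped, and the log2 fold changes were 0.47 (SE 0.47, edgeR adjusted p = 0.645) and -0.07 (SE 0.42, adjusted p = 0.964). The chow value was -0.66 without Xbp1 LKO library 2 and 1.09 without library 1. Derl3, an ER-associated degradation factor, was at 27.1, 13.6 and 20.9 CPM in Xbp1 fl/fl chow and 32.1 and 169 CPM in Xbp1 LKO chow libraries. Its log2 fold change on chow was 2.29 (edgeR adjusted p = 0.108), or 0.64 (adjusted p = 0.873) without Xbp1 LKO library 2 and 3.03 (adjusted p = 0.033) without library 1, and the chaperone gene Hyou1 at -1.13 on the HFS diet (adjusted p = 0.224). On chow this list turned with the library left out: its median was 0.63 without Xbp1 LKO library 1 and -0.68 without library 2.

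Of 13 CREB3L3 targets, edgeR called 0 on chow and 1 on the HFS diet, where 4.75% and 4.08% of all genes passed. DESeq2 called 3 of them lower on chow, and 2 lower and 1 higher on the HFS diet. Over all genes DESeq2 called 1115 of 13402 on chow and 981 of 14411 on the HFS diet. Calls this few in so small a list are not a result about the list. The gene that edgeR called was Apoa1, the main apolipoprotein of HDL (log2 fold change -1.45, SE 0.28, edgeR adjusted p = 0.016). Apoa1 on chow was at -1.20 (edgeR adjusted p = 0.057), or -0.86 (adjusted p = 0.413) without Xbp1 LKO library 2 and -1.66 (adjusted p = 0.030) without library 1, and the fasting hormone gene Fgf21 on the HFS diet at 2.82 (adjusted p = 0.051). The medians of this list were -0.42 and -0.23, and the Apoa1 call on the HFS diet was lost without Xbp1 fl/fl pool 1 or 3 or Xbp1 LKO pool 2 or 3. Leaving out 1 library gave 0 to 1 genes called lower on chow and 0 to 2 on the HFS diet. Among 9 genes of ER-to-Golgi transport attributed to CREB3 and CREB3L2, 3 fell on chow and 1 on the HFS diet in edgeR. DESeq2 called 3 of the 9 lower on each diet. Sec23b, a coat protein gene of COPII vesicles, fell on both, with a log2 fold change of -0.99 (SE 0.18, edgeR adjusted p = 0.012) on chow and -0.83 (SE 0.16, adjusted p = 0.015) on the HFS diet, and Arfgap3 fell on chow (-1.17, adjusted p = 0.014). Sec24d, the other gene that fell on chow, stands in the XBP1 list as well. For Sec31a the HFS value was -0.40 (edgeR adjusted p = 0.077). Over all omissions of 1 library the chow median of these 9 genes ranged from -0.39 to -0.20. On the HFS diet 0 of the 9 passed without Xbp1 fl/fl pool 1 or 3 or Xbp1 LKO pool 2 or 3, and 3 without Xbp1 LKO pool 1. A list of 6 genes held other substrates of the proteases, their escort and factors that retain them in the ER. Insig1, which retains SREBP in the ER and is itself neither substrate nor escort, fell on chow (log2 fold change -1.37, SE 0.29, edgeR adjusted p = 0.023). On the HFS diet 0 of the 6 passed in edgeR, with Scap at -0.43 (edgeR adjusted p = 0.108) and Srebf1 at -0.99 (adjusted p = 0.239). DESeq2 called 2 of the 6 lower on chow and 1 on the HFS diet. The Insig1 call was lost without Xbp1 fl/fl library 1 or 2, and its relative Insig2 was at -0.62 on chow (edgeR adjusted p = 0.104). Over all omissions of 1 library the chow median of the 6 genes ranged from -0.70 to -0.41.

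**Figure D4:**
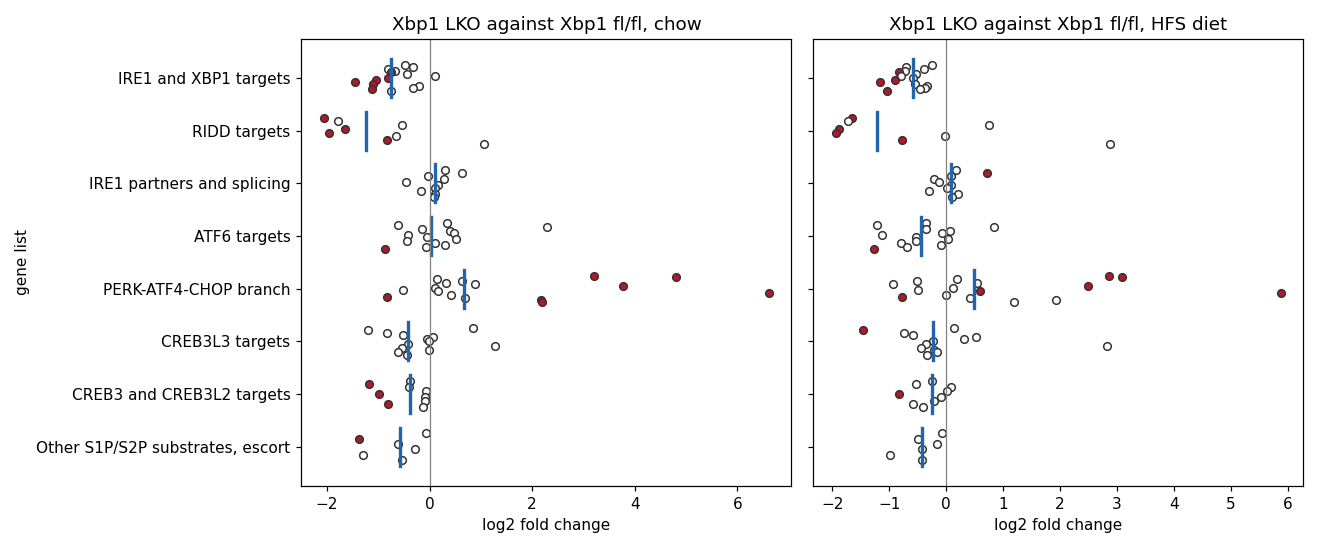
Log2 fold change of Xbp1 LKO against Xbp1 fl/fl for each tested gene of 8 lists downstream of or around the sensors, on chow (left) and the HFS diet (right). Filled points passed an adjusted p under 0.05 in edgeR and blue bars are list medians; the PERK-ATF4-CHOP list lies to the right at medians of 0.67 and 0.48, the RIDD list to the left at -1.24 and -1.22.

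By diet, 0 genes of the 8 lists passed in either genotype in edgeR. The smallest p of each list in Xbp1 fl/fl hepatocytes belonged to Insig1 for the protease substrates, escort and retention factors (log2 fold change -1.27, edgeR adjusted p = 0.066), Chac1 for PERK (1.17, adjusted p = 0.109), Apoa4 for CREB3L3 (1.59, adjusted p = 0.305), Xbp1 for ATF6, Mapk8 for the IRE1α partners (-0.28, adjusted p = 0.489), Dgat2 for RIDD (0.38, adjusted p = 0.695), Edem1 for XBP1 (0.20, adjusted p = 0.769) and Sec31a for CREB3 and CREB3L2 (0.13, adjusted p = 0.830). In Xbp1 LKO hepatocytes they belonged, in the same order, to Srebf1 (1.68, edgeR adjusted p = 0.240), Ppp1r15a (-0.81, adjusted p = 0.107), Apoa4 (1.67, adjusted p = 0.277), Calr (-0.84, adjusted p = 0.240), Bax (-0.28, adjusted p = 0.550), Col6a1 (1.74, adjusted p = 0.381), Sdf2l1 (-1.44, adjusted p = 0.290) and Sar1b (0.41, adjusted p = 0.314). The chow side of these values again turned on the Xbp1 LKO library left out: without library 2, Sdf2l1 was at 0.18, Calr at -0.24 and Ppp1r15a at -0.57, and without library 1 they were at -2.19 (edgeR adjusted p = 0.040), -1.27 (adjusted p = 0.046) and -1.01 (adjusted p = 0.043). Insig1 in Xbp1 fl/fl hepatocytes passed without Xbp1 LKO pool 1 (edgeR adjusted p = 0.015) or pool 2 (adjusted p = 0.047). Of the 3 other tested eIF2α kinase genes, 0 passed by diet in either genotype. Their smallest p belonged to Eif2ak4 in Xbp1 fl/fl hepatocytes (-0.27, edgeR adjusted p = 0.542) and Eif2ak2 in Xbp1 LKO hepatocytes (0.51, adjusted p = 0.197).

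Likeness of pattern was described over the 11 libraries, which include the group differences and share scaling, as Pearson's r of log2 CPM against 10522 protein-coding genes. The pattern of Xbp1 was most like those of Pkd1 (r = 0.947), Agrn (0.945) and Abca2 (0.945), and that of Ern1 like Rheb (0.959), Mettl3 (0.926) and Prr14l (0.896). Eif2ak3 was nearest to Jak1 (r = 0.902), Ptpn11 (0.876) and Nploc4 (0.876). Creb3l3 ran with Kdelr2 (r = 0.962), which retrieves ER proteins from the Golgi, Vnn3 (0.933) and Sec24d (0.923), a COPII coat gene. Among the 10 genes themselves the highest r was between Xbp1 and Creb3l2 (0.763) and the lowest between Xbp1 and Mbtps2 (-0.766).

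Promoters of 9 of the 10 genes were matched in RefSeq's promoter windows (250 bases before to 50 bases after the start), and Atf6 was not. On either strand the ER stress element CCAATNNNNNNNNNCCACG was in 0 of the 9 and in 0.119% of all 32851 promoters, and its second form ATTGGNCCACG in 0 and 0.0365%. The unfolded protein response element TGACGTG was in 0 and 2.01%, and the cyclic AMP element TGACGTCA in 0 and 1.79%. The short CCACG, which ends both forms of the ER stress element, was in 4 of the 9 (Creb3, Creb3l3, Ern1 and Mbtps1) and in 32.8% of all.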

How the data were processed

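Hepatocyte RNA was sequenced as single-end reads of 50 bases, and the authors deposited 1 table of whole-number counts per library, not normalized. The submitters' processing notes name cutadapt 1.13, STAR, HTSeq 0.6.1p1 and DESeq2 with mm10, whereas the study's methods name kallisto and tximport, so which of them made the counts is open. The annotation release and the strand setting of the counting are not given in the sources used here. Symbols and positions were taken from GENCODE M21 (GRCm38), which held 54165 of the 54232 identifiers.

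Counts were filtered with edgeR's filterByExpr (minimum count 10), scaled by TMM and fitted by edgeR 4.0.16 (R 4.3.3) with the quasi-likelihood test, 1 coefficient per group over the 11 libraries. P-values were adjusted by Benjamini-Hochberg over 13303 genes with a threshold of 0.05. They set group differences against the spread between libraries. That spread was estimated for each gene over all 11 libraries, so the chow tests of single mice also drew on the HFS pools. With only the groups compared filtered and fitted, edgeR called 233 genes on chow and 809 on the HFS diet, against 632 and 543. Log2 CPM used a prior count of 2. Correlations and within-library ratios were computed in Python 3.11.15 with pandas 2.3.3 and scipy 1.17.1. Alternatives were DESeq2 1.42.0, limma-voom (limma 3.58.1), other scalings and filters, a replicate block and leaving out each library; leaving out libraries for single list genes was added after the data were seen.

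The 10 genes and the lists were chosen with earlier results of these data known. From each list the text names the 2 genes with the smallest p in each genotype comparison and the 1 with the smallest in each diet comparison, plus Hspa5, Ddit3, Dnajb9 and Bloc1s1 as readouts. Other list genes were named after their values were seen, and 1 gene that this rule names is not reported here. For likeness, the 3 protein-coding genes of mean CPM of at least 1 with the highest r were named.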

Additional observations from a re-analysis of the deposited data

How the results depend on the processing

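Under 21 other settings the 10 genes gave 1040 values over the 5 comparisons, of which 1024 kept their side of the threshold, 5 lost a call and 11 gained one, with 0 called values changing sign. On chow, where 1 of the 10 genes passed, 3 passed with library totals (Ern1, Mbtps1 and Mbtps2), 2 without a filter on low counts, 0 with the groups compared fitted alone and 0 with a replicate block by the numbers in the sample titles. On the HFS diet, where 1 passed as well, 2 passed with library totals, 3 without a filter and 2 with the groups compared fitted alone. Leaving out 1 library gave 0 to 1 on chow and 1 to 2 on the HFS diet. The causes were not tested. For Xbp1 on chow the edgeR adjusted p was 0.063 with library totals, 0.062 with the groups compared alone and 0.054 with the block, and its HFS call held throughout, at -1.38 to -1.01. Deviations from the group mean had a mean r of -0.0087 between same-numbered libraries (lowest -0.199, highest 0.231). Between libraries of different number it was 0.0045 (lowest -0.267, highest 0.333). Deviations cancel within such small groups, which holds the mean r low, so this check cannot tell whether same-numbered libraries shared a batch. The block by the numbers in the file names kept the chow call of Xbp1 (edgeR adjusted p = 0.033). The interaction needs all groups and was not run on the groups compared alone. Over all genes DESeq2 called 1115 on chow, 981 on the HFS diet, 175 and 208 by diet in Xbp1 fl/fl and Xbp1 LKO, and 31 for the interaction, against 632, 543, 57, 8 and 0 in edgeR. Library totals moved 20 of 80 group levels of the 10 genes beyond the spread between libraries. The lowest count behind a value of the 10 genes was 153, for Mbtps2.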
